A study of Homo sapiens with 14 samples.

Results

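The genes described are 43 genes of double-stranded RNA sensing and the interferon response, a fixed list of RNA sensors, their adaptors and kinases, interferon regulators and interferon-stimulated genes. All 43 were found among the 63140 genes of the count table by symbol, RIGI under its older symbol DDX58. Their messenger RNA was counted by bulk RNA sequencing. The cells were HEK293T, a line of human embryonic kidney origin with the SV40 large T antigen, collected 24 h after transfection of an RNA duplex. Control cells (n = 5 libraries) received AllStars, a negative control siRNA, which is a duplex itself. Cells of the miR-34a-WT group (n = 5) received the duplex of the microRNA miR-34a. Cells of the miR-34a-RS group (n = 4, replicates 1, 2, 3 and 5) received the same duplex whose guide residues 13 and 14 were rSpacer, abasic residues that leave the backbone without a base. Every group thus carried a transfected duplex, and no untransfected cells were analysed here, so the comparisons read differences between duplexes and not the response to transfection. The study asked what pairing beyond the seed, the bases near the 5′ end of the guide, adds to targeting.

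Cells detect double-stranded RNA in the cytoplasm through RIG-I (RIGI) and MDA5 (IFIH1), which signal through the mitochondrial adaptor MAVS, and in endosomes through TLR3. The kinases TBK1 and IKBKE then activate IRF3 and IRF7, which switch on interferon genes. Secreted interferon binds receptors that activate a complex that holds STAT2 and IRF9, and this complex binds a GAAA-containing element in the promoters of interferon-stimulated genes.

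The guide of miR-34a is printed first because several of the 43 genes carry a match to its seed. The RefSeq sequence of miR-34a-5p (minus strand of chromosome 1, chr1:9151735-9151756, GRCh38.p14) has its seed, guide bases 2 to 8, in capitals.
miR-34a-5p: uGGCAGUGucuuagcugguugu
Full matches to guide bases 2 to 8 were searched in the longest 3′ UTR that GENCODE 29 annotates for each gene. Such a match was held by 10 of the 34 members tested below, against 19.8% of the 13657 tested genes with a 3′ UTR. Over all 43 genes, tested or not, 11 (25.6%) held one. In 3 of them, IRF1, IKBKE and PARP14, an A follows the match, which makes it an 8mer, and the other 8, OAS3, IFIT1, MAVS, HERC6, IFI35, IFI44L, ZC3HAV1 and PARP9, held the 7-base match alone. A further 4 genes held a 6-base match followed by A, 3 held the 6-base match only, and 25 held none. The sites of members that passed a test, and the 8mers of 2 that did not, are shown with the bases complementary to the seed, and the A of an 8mer, in capitals.
HERC6: tgtactttcacttttgctgcttCACTGCCt
IFI35: ggaggggtcacacattgcaaaaCACTGCCc
OAS3: atgccaccactacccctgccatCACTGCCc
IFIT1: gccttccctcctgataagtgacCACTGCCc
MAVS: ggctgctacagctttttcactcCACTGCCc
IRF1: cctcaacagccaagtgtgacccCACTGCCA
IKBKE: ccttgtgatttctgagggtcacCACTGCCA
These lie in 3′ UTRs at chr4:88443035-88443064, chr17:43014400-43014429, chr12:112971254-112971283, chr10:89404312-89404341, chr20:3868036-3868065, chr5:132483831-132483860 and chr1:206496629-206496658 in GRCh38, in the order printed, on the plus strand except for IRF1. The word AGCT, complementary to guide bases 13 to 16 where the abasic residues sit, was searched 1 to 15 bases upstream of the match. It occurred before a site of MAVS, ZC3HAV1, PARP9 and PARP14, with a gap of 9 bases in MAVS, and not before the sites of HERC6 or IFI35. A match is a description of letters and says nothing about binding.

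The promoter element was looked for as the word GAAA, any 2 bases and GAAA again on either strand (TTTC, any 2 bases and TTTC on the other), overlapping matches included, in the RefSeq promoters of GRCh38.p14, which run from 250 bases before to 50 bases after each start. Of the 35 members with an entry, 21 (60.0%) held the word, against 4.38% of the 27305 genes in the table. OASL, IRF3, OAS2, IFITM2, USP18, IFIT2, DHX58 and IRF7 had no entry. Stretches of 100 bases before the start are shown for 4 members that carried the word and passed a test, 2 that were higher (IFIT1, SAMD9) and 2 that were lower (HERC5, IFIH1), with the word in capitals.
IFIT1: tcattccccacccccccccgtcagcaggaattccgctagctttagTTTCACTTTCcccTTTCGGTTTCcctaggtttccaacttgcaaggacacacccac
SAMD9: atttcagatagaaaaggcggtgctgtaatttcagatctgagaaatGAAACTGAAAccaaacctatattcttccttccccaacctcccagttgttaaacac
HERC5: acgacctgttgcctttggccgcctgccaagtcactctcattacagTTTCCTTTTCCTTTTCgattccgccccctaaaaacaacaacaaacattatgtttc
IFIH1: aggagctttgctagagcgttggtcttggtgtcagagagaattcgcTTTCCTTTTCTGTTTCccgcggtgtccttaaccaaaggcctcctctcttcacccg
They cover chr10:89392462-89392561 (plus strand), chr7:93118061-93118160 (minus), chr4:88456949-88457048 (plus) and chr2:162318789-162318888 (minus).

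Over the whole series, total counts ran from 22.24 to 36.26 M per library and 18321 genes were tested. All 6 markers of the HEK293 line were expressed, at a summed 378.1 to 419.0 CPM (counts scaled to library size by TMM) in control libraries, 327.2 to 360.2 in miR-34a-WT and 324.8 to 353.2 in miR-34a-RS. They did not shift alike. In the same order of groups, means were 63.4, 39.0 and 40.6 CPM for INA, 56.0, 37.8 and 39.2 for NEFL, and 109, 78.6 and 82.8 for NEFM. LIN28B was at 163.8, 182.3 and 171.6 CPM, and PAX2 and LHX1 had lower means in both microRNA groups than in control. The 5 blood cell markers summed to 0.465 to 1.08 CPM in any library, with CD3E at 0 counts in all but 1 library. Of the 5 fibroblast markers COL1A2 was at 0 counts in every library and COL1A1 made up most of the sum of 24.8 to 34.1 CPM. Of the 3 markers of interferon-producing dendritic cells LILRA4 and CLEC4C had 4 and 1 counts in all, and IRF8 was at 6.55 CPM in control against 5.37 and 5.43. The share of counts from mitochondrial genes was 2.19% to 3.30%, lowest in miR-34a-RS replicate 2. The part of these shifts in the results was not tested. In bulk RNA, fewer cells expressing a gene and less RNA per cell cannot be told apart.

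Of the 43 genes, 29 were expressed, taken as a mean of at least 1 CPM over the 14 libraries, and 14 were not. Enough counts for a test were present for 34. Per kilobase of merged exon, the scale on which genes can be set side by side, the highest level was that of ADAR, the editor that turns adenosine into inosine in double-stranded RNA, at 50.9 CPM per kb. The antiviral protein ZC3HAV1 (15.2), MAVS (14.99), IRF3 (12.6), the kinase PKR encoded by EIF2AK2 (12.02) and TBK1 (11.2) followed. The 3 RIG-I-like receptors IFIH1, DHX58 and RIGI stood at 0.318, 0.203 and 0.0715 CPM per kb, and TLR3 at 0.0362. MAVS, IRF3 and TBK1 were thus each far above the 4 receptors on this scale of messenger RNA per length.

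**Figure D1:**
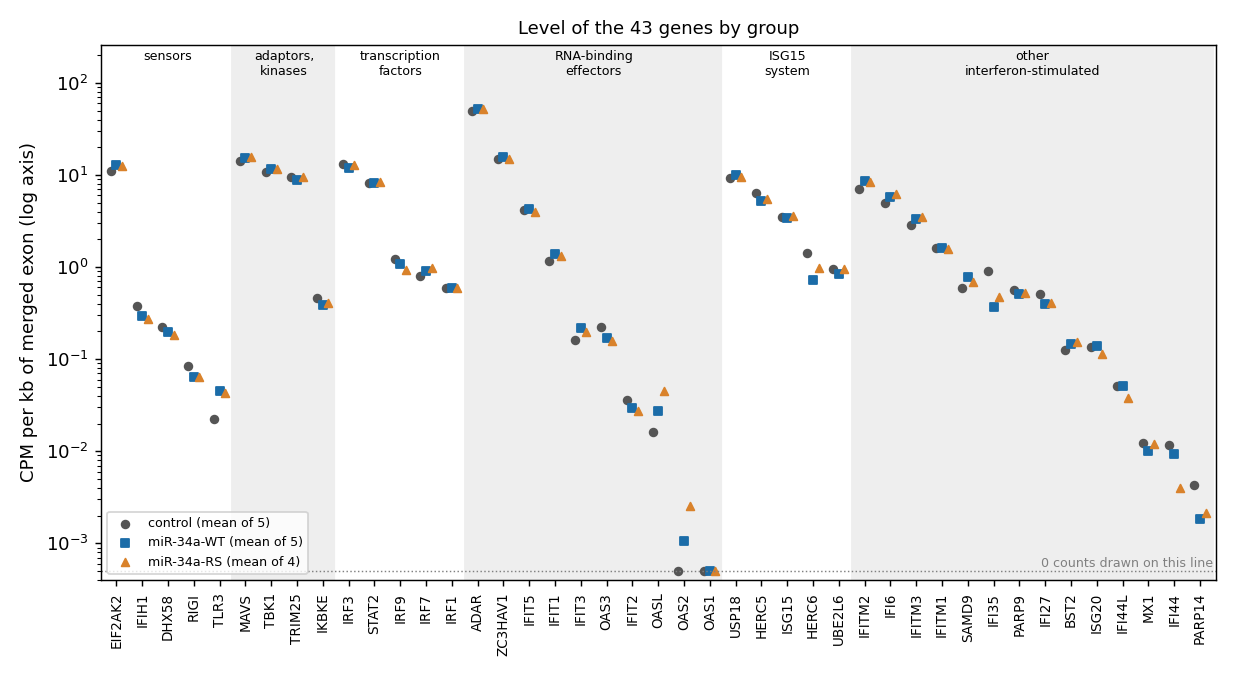
Level of each of the 43 genes as group mean CPM per kb of merged exon (log axis), grouped by role and ordered by level within a role, with control as circles, miR-34a-WT as squares and miR-34a-RS as triangles. ADAR is highest at 50.9 CPM per kb over all libraries, and OAS1, with 0 counts in all 14 libraries, is drawn on the dotted line.

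The 9 genes without a test were near or at the limit of detection. OAS1, one of the synthetases that make the 2-5A activator of RNase L, had 0 counts in all 14 libraries, 434.5 M reads together, which allows a level of up to 0.0069 CPM (3 counts, counting error only). OAS2 had 3 counts in all, IFI44 7, PARP14 13, MX1 42, OASL 44, IFIT2 54, BST2 68 and TLR3 106. MX1, a GTPase that blocks many viruses, and IFIT2, which binds viral RNA, are strongly interferon-induced in most cells, and their highest libraries were at 0.225 and 0.231 CPM.

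For miR-34a-WT against control, 9 of the 34 tested members (26.5%) passed an adjusted p of 0.05 in the quasi-likelihood test of edgeR (Benjamini-Hochberg adjusted over all genes), against 40.2% of all 18321 tested genes. EIF2AK2, IFIT1, IFITM2 and SAMD9 were higher, 4 of 34 against 18.9% of all genes. TRIM25, HERC5, HERC6, IFI27 and IFI35 were lower, 5 of 34 against 21.3%. For miR-34a-RS against control 11 of 34 (32.4%) passed, against 34.6%. EIF2AK2, MAVS, IFI6, IFITM2 and IFITM3 were higher, 5 of 34 against 16.2%, and 6 of 34 were lower against 18.4%, namely OAS3, IFIH1, IRF9, HERC5, HERC6 and IFI35. Between the microRNA duplexes 1 of 34 (2.94%) passed against 1.56% of all genes. It was HERC6, higher in miR-34a-RS (1.03% of all genes were higher), and no member was lower (0.535% of all genes), while 2 of the 34 had an unadjusted p under the same threshold and DESeq2 also called 1 member. In this fit no member called with only 1 of the microRNA duplexes was called between them, so a difference between the duplexes was not shown for those members. The median log2 fold change of the tested members was -0.02, -0.01 and -0.01 in the 3 comparisons, beside -0.02, -0.01 and 0.00 over all tested genes. The first and second comparisons share the control libraries, and where a pair of values against control stands without names, miR-34a-WT comes first and miR-34a-RS second. Among the 34 tested members only HERC6 and IFI35 differed from control by at least 0.5 on the log2 scale. They did so with both microRNA duplexes, 2 of 34 in each comparison, against 13.25% and 11.89% of all tested genes.

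**Figure D2:**
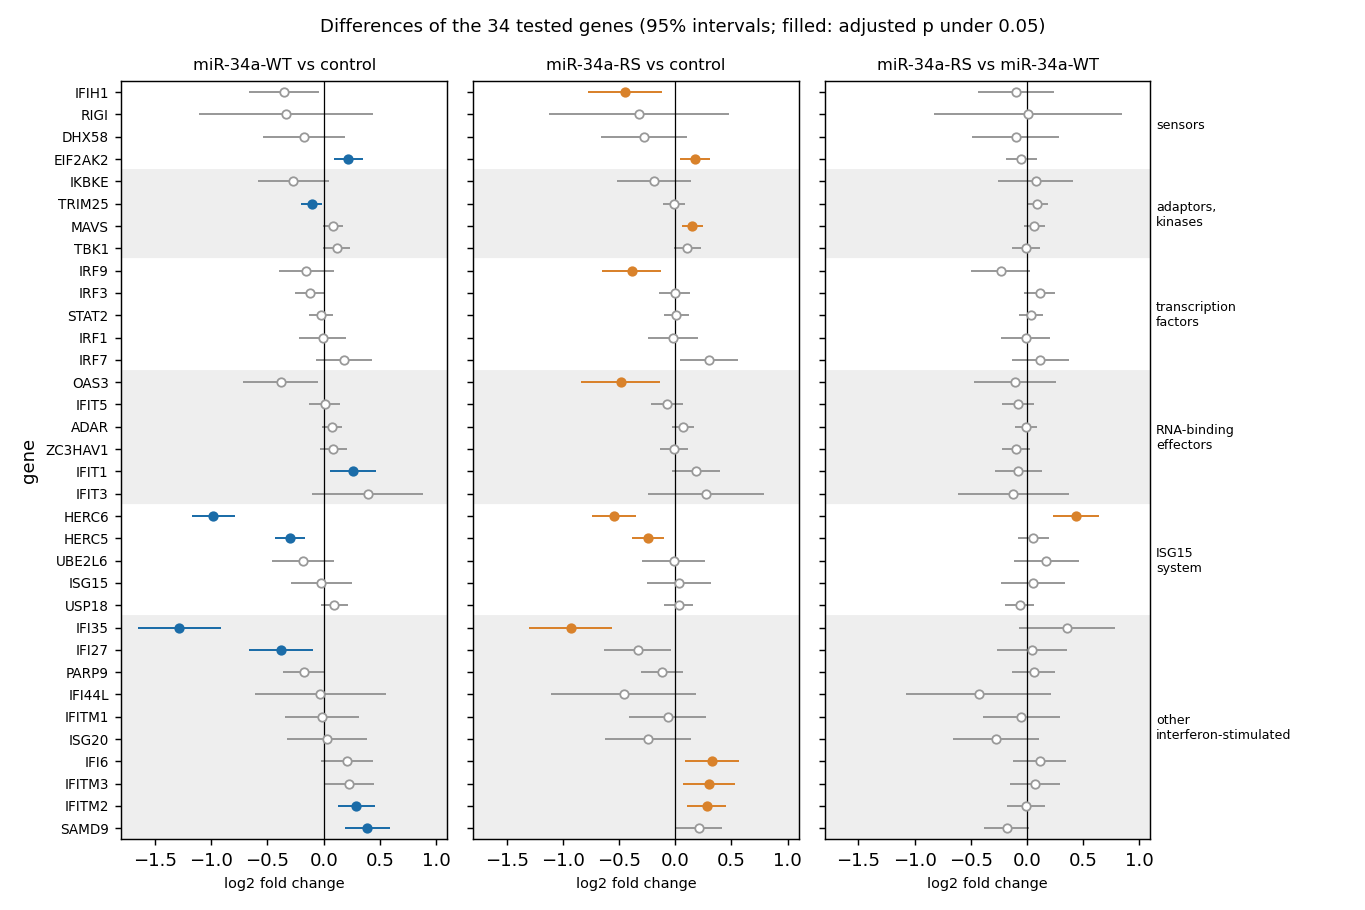
Log2 fold change (x axis) of the 34 tested members (y axis, grouped by role) in the 3 comparisons, with 95% intervals from edgeR, filled where the adjusted p is under 0.05. HERC6 and IFI35 lie farthest left against control, and HERC6 is the only filled point between the microRNA duplexes.

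Among the 5 sensors, EIF2AK2 was the most abundant and rose with both duplexes, while IFIH1 fell with miR-34a-RS. PKR, the EIF2AK2 product, binds double-stranded RNA and then blocks translation. EIF2AK2 stood at 133, 114, 122, 116 and 104 CPM in control replicates 1 to 5 and at 150.4, 137, 133, 131 and 136 in miR-34a-WT. In miR-34a-RS replicates 1, 2, 3 and 5 it was at 147, 131, 129 and 125. Control replicate 1 reached the range of the other groups, so the groups overlapped. The log2 fold change was 0.22 (SE 0.06, adjusted p = 0.00308) for miR-34a-WT and 0.17 (SE 0.06, adjusted p = 0.0289) for miR-34a-RS in edgeR's test. The miR-34a-RS call was lost without control replicate 4, control replicate 5 or miR-34a-RS replicate 1 (adjusted p = 0.0509 to 0.0884). EIF2AK2 overlaps GPATCH11 over 0.33% of its exon length, and counting without strand cannot separate reads from overlapping genes.

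MDA5, encoded by IFIH1, recognises long double-stranded RNA. Its gene was at 2.13, 1.82, 1.75, 2.09 and 1.84 CPM in control, 1.63, 1.49, 1.63, 1.87 and 0.921 in miR-34a-WT and 1.27, 1.41, 1.54 and 1.40 in miR-34a-RS. All 4 miR-34a-RS libraries lay below all 5 control libraries, and miR-34a-WT overlapped both, with replicate 5 lowest of all. The log2 fold change was -0.45 (SE 0.15, adjusted p = 0.0261) for miR-34a-RS by edgeR, a call lost without control replicate 1, control replicate 4, miR-34a-RS replicate 1 or miR-34a-RS replicate 5 (adjusted p = 0.0526 to 0.0779) and without a filter on low counts (adjusted p = 0.0518). For miR-34a-WT it was -0.35 (SE 0.15, adjusted p = 0.0587), which passed without miR-34a-WT replicate 4 (adjusted p = 0.0276) and with a minimum of 1 CPM (adjusted p = 0.0497).

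RIG-I, encoded by RIGI, recognises the 5′ triphosphate end of short duplex RNA. RIGI was at 0.384, 0.375, 0.237, 0.261 and 0.584 CPM in control, 0.271, 0.264, 0.233, 0.311 and 0.318 in miR-34a-WT and 0.212, 0.131, 0.137 and 0.642 in miR-34a-RS. Replicate 5 of miR-34a-RS was the highest of all 14 libraries while the other 3 of that group were the lowest. Its log2 fold change against control was -0.34 (SE 0.37, adjusted p = 0.509) for miR-34a-WT and -0.32 (SE 0.38, adjusted p = 0.557) for miR-34a-RS by edgeR. Without miR-34a-RS replicate 5 the latter was -1.13 (adjusted p = 0.0206). LGP2, the DHX58 product, lacks the signalling domains of the other RIG-I-like receptors and modulates them. DHX58 was at 0.942, 0.951, 0.740, 0.782 and 0.899 CPM in control, 0.658, 0.760, 0.633, 0.933 and 0.794 in miR-34a-WT and 0.665, 0.854, 0.713 and 0.612 in miR-34a-RS. Its groups overlapped and it did not pass in any comparison, at a log2 fold change of -0.18 (SE 0.17, adjusted p = 0.478) and -0.28 (SE 0.18, adjusted p = 0.267) against control by edgeR.

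TLR3, the endosomal sensor, had 3 to 12 counts per library and was removed by the filter on low counts. It was at 0.140, 0.0864, 0.178, 0.163 and 0.180 CPM in control, 0.310, 0.363, 0.267, 0.249 and 0.318 in miR-34a-WT and 0.272, 0.296, 0.329 and 0.262 in miR-34a-RS. Every microRNA library lay above every control library. Without the filter, edgeR gave a log2 fold change of 1.02 (SE 0.39, adjusted p = 0.0528) for miR-34a-WT and 0.99 (SE 0.41, adjusted p = 0.0914) for miR-34a-RS, neither past the threshold.

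**Figure D3:**
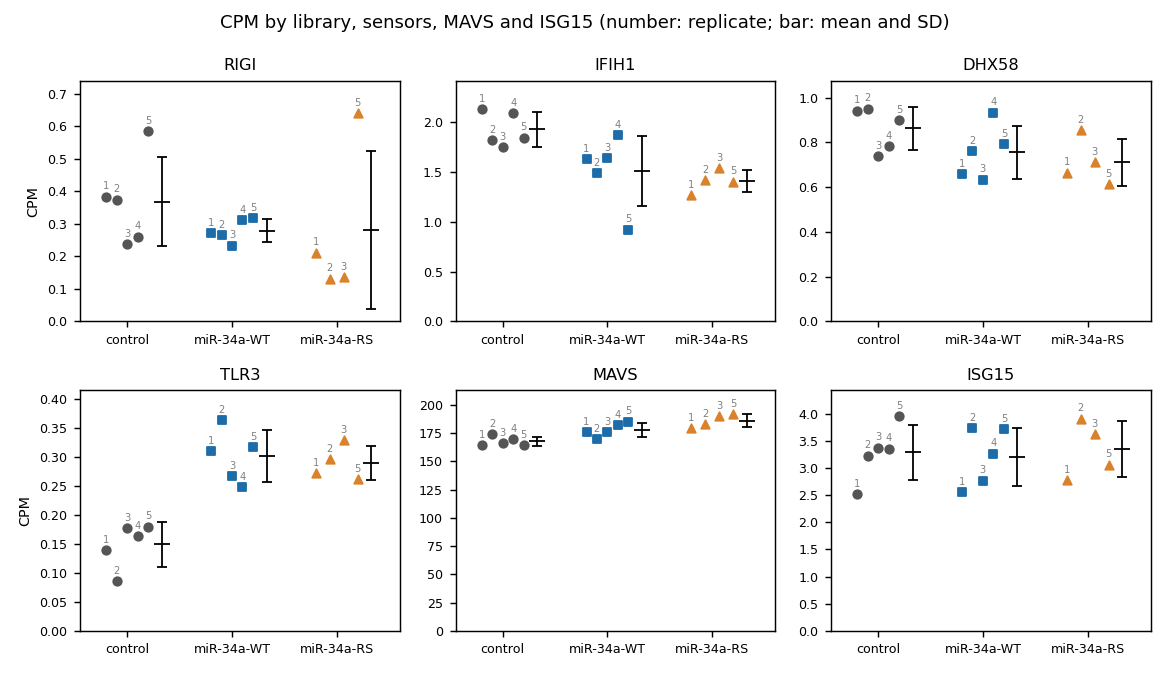
CPM (y axis, from 0) in each library for RIGI, IFIH1, DHX58, TLR3, MAVS and ISG15 in the 3 groups (x axis), each point labelled with its replicate number, with the group mean and SD as a bar. TLR3 is higher in all 9 microRNA libraries than in all 5 control libraries, RIGI in miR-34a-RS is spread by replicate 5, and ISG15 overlaps across the groups.

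Of the 4 adaptors and kinases, MAVS rose with miR-34a-RS and TRIM25 fell with miR-34a-WT. MAVS relays the signal of the RIG-I-like receptors from the mitochondrial surface. It was at 164, 174, 166, 169 and 164 CPM in control, 176, 169.5, 176, 182 and 185 in miR-34a-WT and 179, 183, 190.1 and 192 in miR-34a-RS. All miR-34a-RS libraries lay above all control libraries, and miR-34a-WT overlapped both. Relative to control the log2 fold change was 0.15 (SE 0.04, adjusted p = 0.00568) for miR-34a-RS and 0.09 (SE 0.04, adjusted p = 0.0880) for miR-34a-WT by edgeR. The latter passed without control replicate 2 or miR-34a-WT replicate 2 (adjusted p = 0.0399 and 0.0271), with RLE factors (adjusted p = 0.0499) and in DESeq2 (adjusted p = 0.0208). The gene has a site with the AGCT word, and its level in miR-34a-RS over miR-34a-WT differed by 0.07 (SE 0.04, adjusted p = 0.579) on the log2 scale, with a 95% interval of -0.02 to 0.15.

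TRIM25, a ubiquitin ligase that acts on RIG-I signalling, was at 86.8, 92.04, 92.99, 90.7 and 87.3 CPM in control, 83.3, 81.3, 83.2, 83.1 and 86.95 in miR-34a-WT and 91.2, 86.4, 87.6 and 91.5 in miR-34a-RS. The highest miR-34a-WT library, replicate 5, overlapped the lowest control library. The log2 fold change stood at -0.11 (SE 0.04, adjusted p = 0.0372) for miR-34a-WT and -0.01 (SE 0.04, adjusted p = 0.844) for miR-34a-RS by edgeR. The miR-34a-WT call was lost without control replicate 2, control replicate 3, control replicate 4, miR-34a-WT replicate 1, miR-34a-WT replicate 2, miR-34a-WT replicate 3 or miR-34a-WT replicate 4 (adjusted p = 0.0599 to 0.164), with RLE factors (adjusted p = 0.0785) and without a filter (adjusted p = 0.270). TRIM25 overlaps DGKE and C17orf67 over 0.84% and 1.39% of its exon length. The kinase TBK1 was at 47.2 to 56.1 CPM in control, 51.6 to 57.5 in miR-34a-WT and 51.3 to 57.9 in miR-34a-RS, with log2 fold changes of 0.12 (SE 0.05, adjusted p = 0.0865) and 0.11 (SE 0.06, adjusted p = 0.140) that did not pass in edgeR's test. It passed for miR-34a-WT without control replicate 1, miR-34a-WT replicate 2 or miR-34a-WT replicate 4 (adjusted p = 0.0174, 0.0491 and 0.0359) and for miR-34a-RS without control replicate 1 (adjusted p = 0.0322). Its relative IKBKE, which has an 8mer, was at 1.30 to 2.34, 1.34 to 1.63 and 1.25 to 1.72 CPM, and at a log2 fold change of -0.27 (SE 0.15, adjusted p = 0.161) and -0.19 (SE 0.15, adjusted p = 0.370) against control.

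Of the 5 transcription factors, IRF9 fell with miR-34a-RS and none passed with miR-34a-WT. IRF9 is the DNA-binding partner of STAT2. It was at 4.85, 4.09, 3.52, 5.18 and 5.62 CPM in control, 4.49, 3.44, 3.73, 4.45 and 4.61 in miR-34a-WT and 3.45, 3.32, 3.37 and 3.94 in miR-34a-RS. Control libraries spread widely, and replicates 3 of control and 5 of miR-34a-RS overlapped. Against control the log2 fold change was -0.39 (SE 0.12, adjusted p = 0.0162) for miR-34a-RS and -0.15 (SE 0.12, adjusted p = 0.314) for miR-34a-WT by edgeR, and the first was lost without control replicate 4 (adjusted p = 0.0512). IRF9 overlaps the gene AL136295.5 on the same strand over 48.4% of its exon length.

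IRF3, the constitutive factor that switches on interferon genes, was at a log2 fold change of -0.12 (SE 0.06, adjusted p = 0.119) and 0.00 (SE 0.06, adjusted p = 0.965) against control by edgeR, and it overlaps BCL2L12. IRF7, its inducible relative, was at 1.85 to 2.19 CPM in control, 1.74 to 2.64 in miR-34a-WT and 2.36 to 2.74 in miR-34a-RS, where the last lay wholly above control. Its log2 fold change for miR-34a-RS was 0.30 (SE 0.12, adjusted p = 0.0528) by edgeR, which missed the threshold here and, among fits without a replicate block, passed with RLE factors (adjusted p = 0.0440), upper-quartile factors (0.0397), a minimum of 1 CPM (0.0421), only those 2 groups in the fit (0.0438) or without miR-34a-RS replicate 1 (0.0376). STAT2 was at a log2 fold change of -0.02 (SE 0.05, adjusted p = 0.729) and 0.01 (SE 0.05, adjusted p = 0.890). IRF1, an interferon-gamma-induced factor with an 8mer, was at a log2 fold change of -0.01 (95% interval -0.21 to 0.19) and -0.02 (-0.23 to 0.19).

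Of the 10 RNA-binding effectors 6 were tested, IFIT1 rose with miR-34a-WT and OAS3 fell with miR-34a-RS. IFIT1 binds RNA that lacks the cap methylation of host messages. It was at 6.11, 5.36, 4.56, 5.90 and 4.72 CPM in control, 6.19, 7.63, 6.10, 6.25 and 5.78 in miR-34a-WT and 5.89, 6.57, 5.81 and 5.98 in miR-34a-RS. The groups overlapped, and miR-34a-WT replicate 2 was highest. The log2 fold change was 0.26 (SE 0.09, adjusted p = 0.0286) for miR-34a-WT and 0.18 (SE 0.10, adjusted p = 0.160) for miR-34a-RS by edgeR, and the first was lost without control replicate 3, control replicate 5 or miR-34a-WT replicate 2 (adjusted p = 0.0681 to 0.0887). OAS3, the longest of the 2-5A synthetases, was at 1.36, 1.84, 2.07, 1.83 and 2.11 CPM in control, 0.852, 1.42, 1.60, 1.62 and 1.49 in miR-34a-WT and 1.09, 1.48, 1.34 and 1.34 in miR-34a-RS. Control replicate 1 was below the other controls and inside the range of both microRNA groups. Its log2 fold change against control was -0.49 (SE 0.17, adjusted p = 0.0239) for miR-34a-RS, lost without control replicate 3 or miR-34a-RS replicate 1 (adjusted p = 0.0685 to 0.0882), and -0.38 (SE 0.16, adjusted p = 0.0542) for miR-34a-WT, which passed without control replicate 1 (adjusted p = 0.0183) and with a minimum of 1 CPM (adjusted p = 0.0480).

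The other 4 tested effectors did not pass against control. ADAR was at 458 to 496 CPM in control, 486 to 524 in miR-34a-WT and 477 to 514 in miR-34a-RS, with a log2 fold change of 0.08 (SE 0.04, adjusted p = 0.124) for miR-34a-WT by edgeR, and it passed without miR-34a-WT replicate 2 (adjusted p = 0.0470) and in DESeq2 (adjusted p = 0.0392). ZC3HAV1, which binds CpG-rich viral RNA, was at a log2 fold change of 0.09 (95% interval -0.02 to 0.20) and -0.01 (-0.13 to 0.11). IFIT5 was at a log2 fold change of 0.01 (-0.12 to 0.14) and -0.07 (-0.20 to 0.06). IFIT3, the partner of IFIT1, was below 1 CPM in every library and at a log2 fold change of 0.39 (-0.09 to 0.88) and 0.27 (-0.24 to 0.78). IFIT genes resemble each other, and the authors' counting could split reads between them.

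ISG15 is a ubiquitin-like protein that is attached to other proteins by the ligases HERC5 and, in some species, HERC6 with the conjugating enzyme UBE2L6, and removed by USP18. HERC6 and HERC5, neighbours on chromosome 4, fell with both duplexes, and the other 3 genes of this system did not pass. HERC6 was at 9.25, 7.92, 7.93, 9.19 and 6.96 CPM in control, 4.57, 3.90, 4.57, 4.17 and 3.78 in miR-34a-WT and 5.83, 5.88, 5.68 and 5.28 in miR-34a-RS. No library of one group overlapped another, with miR-34a-WT lowest and miR-34a-RS between. Relative to control the log2 fold change was -0.98 (SE 0.09, adjusted p = 1.67e-09) for miR-34a-WT and -0.55 (SE 0.09, adjusted p = 2.80e-05) for miR-34a-RS by edgeR. For miR-34a-RS over miR-34a-WT it was 0.44 (SE 0.10, adjusted p = 0.0163), with a 95% interval of 0.24 to 0.63, and 0.46 (adjusted p = 9.00e-04) with a replicate block. The call between the microRNA duplexes was lost without miR-34a-RS replicate 2, miR-34a-RS replicate 3 or miR-34a-WT replicate 5 (adjusted p = 0.0538 to 0.0661). HERC6 holds the 7-base seed match printed above without the AGCT word before it.

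HERC5, the main ISG15 ligase in human cells, was at 32.1, 27.8, 32.1, 30.9 and 30.4 CPM in control, 24.1, 28.01, 24.2, 24.3 and 23.8 in miR-34a-WT and 26.5, 28.7, 24.2 and 24.3 in miR-34a-RS. Replicate 2 was the highest of both microRNA groups and the lowest of the control group, and the groups overlapped there. The log2 fold change stood at -0.30 (SE 0.06, adjusted p = 2.32e-04) for miR-34a-WT and -0.24 (SE 0.06, adjusted p = 0.00370) for miR-34a-RS by edgeR, and both calls held in every alternative run. HERC5 has no seed match in the 3′ UTR searched. ISG15 itself was at 2.51, 3.23, 3.38, 3.36 and 3.95 CPM in control, 2.56, 3.73, 2.77, 3.26 and 3.72 in miR-34a-WT and 2.78, 3.91, 3.62 and 3.06 in miR-34a-RS. Replicate 1 was lowest in each group, and the groups overlapped over nearly their whole range. Its log2 fold change was -0.02 (95% interval -0.29 to 0.24) and 0.03 (-0.24 to 0.31). USP18 was at a log2 fold change of 0.10 (-0.02 to 0.21) and 0.03 (-0.09 to 0.15), and UBE2L6 at a log2 fold change of -0.19 (-0.45 to 0.08) and -0.01 (-0.28 to 0.26). ISG15 overlaps AL645608.3.

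**Figure D4:**
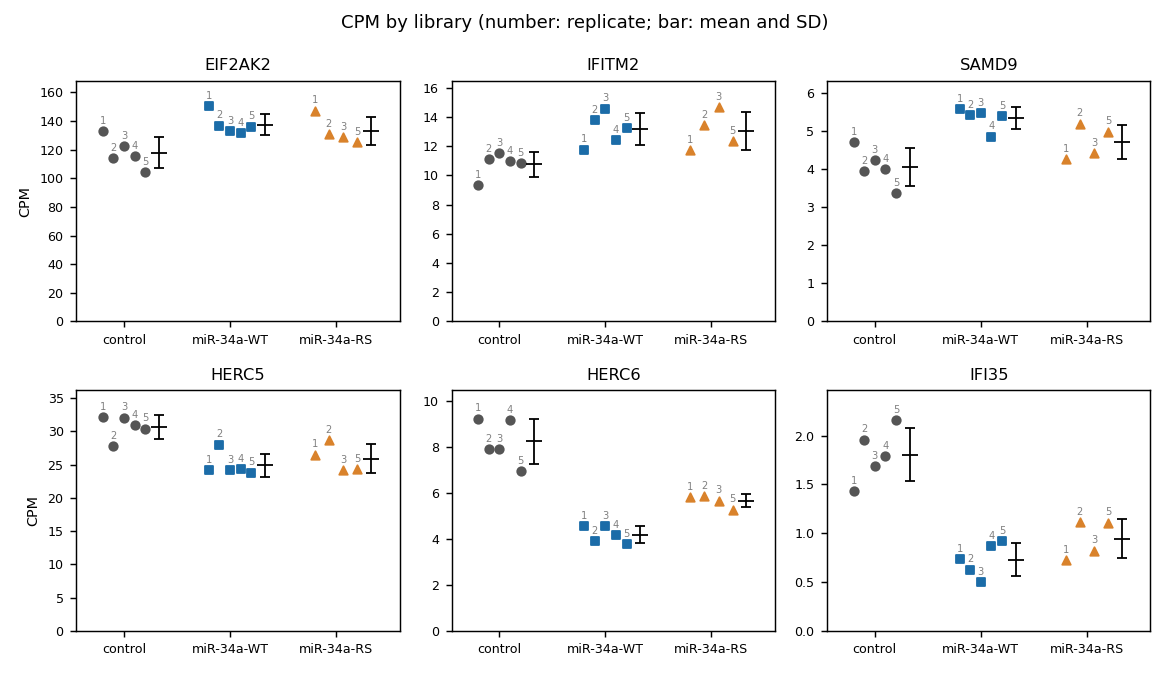
CPM (y axis, from 0) in each library for the 6 members called in every alternative for miR-34a-WT against control, in the 3 groups (x axis), with replicate numbers and the group mean and SD as a bar. EIF2AK2, IFITM2 and SAMD9 are higher and HERC5, HERC6 and IFI35 lower in miR-34a-WT, and HERC6 in miR-34a-RS lies between the other groups.

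Of the 14 other interferon-stimulated genes 10 were tested. IFI35 showed the largest fall of the tested members against control, and IFITM2 rose with both duplexes. IFI35, an interferon-induced leucine zipper protein, was at 1.43, 1.96, 1.69, 1.79 and 2.16 CPM in control, 0.736, 0.628, 0.500, 0.871 and 0.921 in miR-34a-WT and 0.725, 1.12, 0.823 and 1.11 in miR-34a-RS. All 9 microRNA libraries lay below all 5 control libraries. Against control the log2 fold change was -1.29 (SE 0.18, adjusted p = 1.56e-06) for miR-34a-WT and -0.93 (SE 0.17, adjusted p = 1.49e-04) for miR-34a-RS by edgeR, and both calls held in every alternative. Between the microRNA duplexes it was 0.36 (SE 0.20, adjusted p = 0.524), with a 95% interval of -0.06 to 0.77. IFI35 also holds the 7-base match without the AGCT word.

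IFITM2 and IFITM3 encode membrane proteins that block the entry of enveloped viruses. IFITM2 was at 9.32, 11.1, 11.5, 10.98 and 10.8 CPM in control, 11.8, 13.8, 14.6, 12.4 and 13.2 in miR-34a-WT and 11.7, 13.5, 14.7 and 12.4 in miR-34a-RS. All microRNA libraries lay above all control libraries. IFITM2 differed from control by a log2 fold change of 0.29 (SE 0.08, adjusted p = 0.00302) and 0.28 (SE 0.08, adjusted p = 0.00722) by edgeR, and both calls held in every alternative. IFITM3 was at 2.93, 3.83, 4.41, 3.81 and 4.13 CPM in control, 3.87, 4.79, 4.73, 4.63 and 4.32 in miR-34a-WT and 4.35, 4.40, 5.29 and 4.75 in miR-34a-RS. Control replicate 1 was lowest of all, and the upper controls overlapped both other groups. Its log2 fold change against control was 0.30 (SE 0.11, adjusted p = 0.0313) for miR-34a-RS, lost without control replicate 1, control replicate 4, miR-34a-RS replicate 3 or miR-34a-RS replicate 5 (adjusted p = 0.0521 to 0.127), and 0.23 (SE 0.10, adjusted p = 0.0837) for miR-34a-WT, which passed without control replicate 3 (adjusted p = 0.0348) or miR-34a-WT replicate 1 (adjusted p = 0.0461). IFITM1 was at a log2 fold change of -0.02 (95% interval -0.34 to 0.30) and -0.07 (-0.40 to 0.27). The IFITM genes are related neighbours, IFITM1 and IFITM2 overlap in the annotation, and IFITM3 overlaps AC136475.5, so their split of reads is uncertain.

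SAMD9, an antiviral and growth-restraining protein, was at 4.71, 3.95, 4.23, 4.01 and 3.37 CPM in control, 5.58, 5.42, 5.47, 4.85 and 5.40 in miR-34a-WT and 4.26, 5.19, 4.42 and 4.99 in miR-34a-RS. All miR-34a-WT libraries lay above all control libraries, and miR-34a-RS overlapped both. Relative to control the log2 fold change was 0.39 (SE 0.09, adjusted p = 0.00128) for miR-34a-WT and 0.21 (SE 0.10, adjusted p = 0.101) for miR-34a-RS by edgeR. The second passed without control replicate 1 (adjusted p = 0.0390). Between the microRNA duplexes SAMD9 was at a log2 fold change of -0.18 (SE 0.09, adjusted p = 0.465), so a difference between them was not shown.

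IFI27 and IFI6 encode small mitochondrial or endoplasmic reticulum proteins of one family. IFI27 fell with miR-34a-WT and IFI6 rose with miR-34a-RS. IFI27 was at 2.13, 2.31, 1.98, 1.92 and 2.34 CPM in control, 1.63, 1.22, 1.63, 1.55 and 2.13 in miR-34a-WT and 1.87, 1.84, 1.56 and 1.49 in miR-34a-RS. All miR-34a-RS libraries lay below control, while miR-34a-WT replicate 5 lay inside the control range. The log2 fold change stood at -0.38 (SE 0.13, adjusted p = 0.0265) for miR-34a-WT and -0.34 (SE 0.14, adjusted p = 0.0655) for miR-34a-RS by edgeR. The first was lost without control replicate 2, control replicate 5, miR-34a-WT replicate 2, miR-34a-WT replicate 3 or miR-34a-WT replicate 4 (adjusted p = 0.0541 to 0.109), without a filter (adjusted p = 0.0630) and in DESeq2 (adjusted p = 0.0557). IFI6 was at 4.22, 3.80, 4.29, 4.30 and 4.94 CPM in control, 3.99, 5.95, 4.27, 5.78 and 4.70 in miR-34a-WT and 4.87, 5.65, 5.16 and 5.80 in miR-34a-RS. Control replicate 5 overlapped the lowest miR-34a-RS library. Against control the log2 fold change was 0.32 (SE 0.11, adjusted p = 0.0260) for miR-34a-RS, lost without control replicate 2, miR-34a-RS replicate 2 or miR-34a-RS replicate 5 (adjusted p = 0.0571 to 0.0820), and 0.21 (SE 0.11, adjusted p = 0.130) for miR-34a-WT, which passed without miR-34a-WT replicate 1 (adjusted p = 0.0461).

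The remaining tested members did not pass. PARP9, an ADP-ribosyltransferase that works with the ligase DTX3L, was at a log2 fold change of -0.18 (SE 0.08, adjusted p = 0.0997) and -0.12 (SE 0.09, adjusted p = 0.327) against control by edgeR. ISG20, an exonuclease, was at a log2 fold change of 0.03 (95% interval -0.32 to 0.38) and -0.24 (-0.62 to 0.13). IFI44L, below 1 CPM in every library, was at a log2 fold change of -0.03 (-0.61 to 0.54) and -0.46 (-1.09 to 0.17).

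In the comparison of the microRNA duplexes, libraries of one number deviated together, so a fit with a replicate block is given beside the unblocked one. It called 2 members, HERC6 higher and ZC3HAV1 lower, and 1254 genes in all, against 1 member and 286 genes without the block. ZC3HAV1 was at a log2 fold change of -0.11 (adjusted p = 0.0345) with the block and at a log2 fold change of -0.10 (SE 0.06, adjusted p = 0.537) without it in edgeR's test. It was at 140.0, 129, 135, 123 and 126 CPM in miR-34a-WT replicates 1 to 5 and 131, 122, 124 and 112 in miR-34a-RS replicates 1, 2, 3 and 5. The 2 groups overlapped, and in all 4 pairs the miR-34a-RS library was the lower. Its 3′ UTR holds a seed match preceded by AGCT at a gap of 15 bases.

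Set beside the seed matches, 2 of the 10 tested members with an 8mer or 7-base match were lower and 1 was higher with miR-34a-WT, and 3 were lower and 1 higher with miR-34a-RS. Over all 2707 tested genes with such a match 43.4% were lower and 13.9% higher with miR-34a-WT, and 39.1% and 12.3% with miR-34a-RS. The median log2 fold change was -0.10 over the 10 members and -0.13 over the 2707 genes with miR-34a-WT, and -0.15 and -0.12 with miR-34a-RS. Of the 18 tested members with no seed match 2 rose and 2 fell with miR-34a-WT, and 3 rose and 3 fell with miR-34a-RS. Over all 8339 tested genes with no seed match 27.5% were higher and 17.2% lower with miR-34a-WT, and 23.3% and 14.1% with miR-34a-RS. Among the 16 tested members with the GAAA element in a promoter, 3 were higher and 2 lower with miR-34a-WT and 3 higher and 3 lower with miR-34a-RS, with median log2 fold changes of 0.00 and -0.07. Of all tested genes 18.9% were higher and 21.3% lower with miR-34a-WT, and 16.2% and 18.4% with miR-34a-RS. Summed over all members the level was 1267 ± 29.1 CPM (SD, n = 5) in control, 1317 ± 20.5 (n = 5) in miR-34a-WT and 1320 ± 24.0 (n = 4) in miR-34a-RS. Without ADAR the sums were 789.3 ± 18.1, 814 ± 10.6 and 819.5 ± 9.80 CPM. Over the members with the GAAA element the sums were 201.3 ± 11.8, 217.2 ± 8.30 and 212.2 ± 11.3 CPM, and without EIF2AK2 they were 83.4 ± 2.18, 79.7 ± 3.89 and 79.3 ± 3.95 CPM. Those last sums, lower in both microRNA groups in the mean, overlapped between all groups, and no sum was tested.

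A further list of 82 genes covered interferons, their receptors, other sensors, downstream factors, further interferon-stimulated genes and cytokines. None of the 9 interferon genes had enough counts for a test, and IFNB1 had 0 counts in all 14 libraries, which allows up to 0.0069 CPM. IFNL1, IFNL2 and IFNL3 had 2, 3 and 1 counts in all. None of the 7 cytokine genes was tested, with 0 counts for CXCL10, 4 for IL6 and 58 for CXCL8, and the interferon-stimulated gene RSAD2 had 9. Of the 45 tested genes of the list, 6 rose and 10 fell with miR-34a-WT, 5 rose and 8 fell with miR-34a-RS, and 1 differed between the microRNA duplexes. These are 35.6%, 28.9% and 2.22% of the 45, beside 40.2%, 34.6% and 1.56% of all tested genes.

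Of the 11 receptor and JAK-STAT genes, all tested, 1 was higher and 2 were lower with miR-34a-WT, and 3 were lower with miR-34a-RS. That is 27.3% called in each comparison, beside 40.2% and 34.6% of all tested genes. The kinase gene JAK1 was the one higher with miR-34a-WT, IFNLR1 and the kinase gene JAK2 were lower with miR-34a-WT, and IFNLR1 and the type I interferon receptor genes IFNAR1 and IFNAR2 were lower with miR-34a-RS. All but IFNLR1 were named after their values were seen, with log2 fold changes of 0.18 for JAK1, -0.26 for JAK2, -0.15 for IFNAR1 and -0.24 for IFNAR2 (adjusted p = 9.57e-04, 0.0276, 0.0210 and 0.0397 by edgeR). Of the 11 genes only IFNLR1 was called between the microRNA duplexes, so a difference between them was not shown for the others. The calls of JAK1, JAK2, IFNAR1 and IFNAR2 under the alternatives are not given here. IFNAR2 overlaps AP000295.1 on the same strand over 44.2% of its exon length and IL10RB-DT over 39.1%. IFNLR1, the receptor chain for type III interferon, was at 15.6 to 16.6, 9.60 to 11.9 and 12.4 to 14.6 CPM, with no overlap between any of the groups. Its log2 fold change was -0.55 (SE 0.06, adjusted p = 1.31e-07) for miR-34a-WT, -0.26 (SE 0.07, adjusted p = 0.00323) for miR-34a-RS and 0.29 (SE 0.07, adjusted p = 0.0234) between them, the last lost without miR-34a-RS replicate 2, miR-34a-RS replicate 3, miR-34a-WT replicate 1 or miR-34a-WT replicate 3 (adjusted p = 0.0578 to 0.125) and with only the 2 groups in the fit (adjusted p = 0.0627). Its 3′ UTR holds a 7-base seed match.

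Of the 14 tested further interferon-stimulated genes 2 were higher and 6 lower with miR-34a-WT, and 1 higher and 4 lower with miR-34a-RS. That is 57.1% and 35.7% called, beside the same 40.2% and 34.6%. TRIM14, a MAVS-associated protein, was at 39.1 to 43.4 CPM in control and 20.8 to 25.2 and 23.6 to 26.7 in the microRNA groups, with log2 fold changes of -0.82 (SE 0.06, adjusted p = 8.00e-12) and -0.71 (SE 0.06, adjusted p = 5.16e-10) by edgeR. TRIM14 overlaps NANS, on the other strand, over 7.72% of its exon length. DTX3L, the partner of PARP9 whose gene overlaps it, was at a log2 fold change of -0.68 (SE 0.08, adjusted p = 5.52e-08) and -0.63 (SE 0.08, adjusted p = 5.39e-07). The secreted glycoprotein gene LGALS3BP was higher, at a log2 fold change of 0.59 (SE 0.07, adjusted p = 4.83e-07) and 0.53 (SE 0.08, adjusted p = 7.42e-06). PML, the scaffold of nuclear bodies, fell on the log2 scale by 0.37 (SE 0.06) and 0.25 (SE 0.07), and its 3′ UTR also holds 7-base seed matches.

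NMI, which binds IFI35, rose with miR-34a-WT, at a log2 fold change of 0.56 (SE 0.13, adjusted p = 0.00132), and was at a log2 fold change of 0.31 (SE 0.14, adjusted p = 0.0991) for miR-34a-RS, which passed without control replicate 2 (adjusted p = 0.0450). The helicase gene HELZ2 fell with miR-34a-WT, at a log2 fold change of -0.37 (SE 0.09, adjusted p = 0.00157), and was at a log2 fold change of -0.02 (SE 0.09, adjusted p = 0.896) for miR-34a-RS by edgeR. Between the microRNA duplexes HELZ2 was at a log2 fold change of 0.35 (SE 0.09, adjusted p = 0.0548), and at a log2 fold change of 0.37 (adjusted p = 5.70e-04) with the replicate block. HELZ2 also passed in edgeR with upper-quartile factors (adjusted p = 0.0423), without a filter (4.47e-05) and with only the 2 groups in the fit (0.0345). It passed as well without miR-34a-RS replicate 1 (adjusted p = 0.0208) and in DESeq2 (adjusted p = 0.0148). With the block PML passed too, at a log2 fold change of 0.15 (adjusted p = 0.0488) against 0.12 (SE 0.07, adjusted p = 0.475) without it. EPSTI1, named after its values were seen and below a mean of 1 CPM, was at a log2 fold change of -0.96 (SE 0.15, adjusted p = 1.14e-05) and -1.12 (SE 0.16, adjusted p = 4.12e-06). The 3′ UTR of EPSTI1 holds a 7-base seed match as well. No full match was found for TRIM14, DTX3L, HELZ2, JAK2, IFNAR1 or IFNAR2, which were also called lower. In the receptor and downstream lists IFNGR2, IL10RB, SOCS3, STING1, NFKBIA and TNFAIP3 hold a full match and were not called lower with either duplex. These 6 were named after their values were seen. Whether falls in this list follow the matches was not tested.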

How the data were processed

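The deposited table holds whole-number read counts per gene for 14 libraries, made with the TruSeq RNA v2 kit, which carries no strand information, per the labels' protocols. Per the submitters' processing notes the authors used STAR 2.7.11a, featureCounts of Subread 2.0.3, edgeR 3.42.4 and GRCh38. The annotation release and the strand setting are not given in the sources used here. Totals of 22.24 to 36.26 M set the precision, and limits from 0 counts cover counting error only. Nothing in the labels says that replicates were separate cultures, and p-values then reflect only how these libraries varied, possibly for technical reasons.

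Identifiers were matched to symbols through a list of gene names, and 62541 of 63140 matched. Exon lengths, overlaps and 3′ UTRs came from GENCODE 29. Promoters and miR-34a come from RefSeq (GRCh38.p14). The gene test was that of edgeR 4.0.16 under R 4.3.3 (TMM factors, filterByExpr by group, glmQLFit with robust dispersion, glmQLFTest, 1 fit of 3 group means over all 14 libraries), with Benjamini-Hochberg adjustment over 18321 genes and a threshold of 0.05. Fold changes are on the log2 scale, intervals at 95%, and the common biological coefficient of variation was 0.0615. No 2 replicates agreed within sampling noise (chi-square per degree of freedom 2.72 to 14.3 over 26 pairs). Python 3.11.15 with pandas 2.3.3 made the tables. The fit was also run on simulated counts without shared deviations of libraries of one number, so that run cannot speak to the pairing.

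The labels do not say what a replicate number marks. Deviations from the group means were correlated over 9901 genes of at least 10 CPM. For miR-34a-RS with miR-34a-WT, libraries of one number gave correlations of 0.396 to 0.779 (mean 0.607) and libraries of different numbers a mean of -0.14. All 4 were closest to their own number, but miR-34a-RS replicate 3 only narrowly. It correlated at 0.396 with miR-34a-WT replicate 3 and at 0.393 with miR-34a-WT replicate 4. The main fit and the runs that left out a library did not use this pairing. For that comparison the replicate block is an alternative, given beside results it changes.

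The members and lists were chosen with earlier results of these data known. Values of every library are given for the sensors RIGI, IFIH1, DHX58, EIF2AK2 and TLR3, for MAVS, and for members past the threshold in any comparison with a mean of at least 1 CPM, 18 genes in all, plus ISG15 and ZC3HAV1, added after their values were seen. Of the other pathway genes, those past the threshold with a log2 fold change of at least 0.3 in size and a mean of at least 1 CPM are named, 7 genes, beside IFNB1, IFNL1, IFNL2, IFNL3, CXCL10, RSAD2, IL6 and CXCL8. 1 gene of that list is not reported here. Alternatives were RLE and upper-quartile factors, no filter, a minimum mean of 1 CPM, the replicate block, only the 2 groups compared, each library left out and DESeq2 1.42.0.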

Additional observations from a re-analysis of the deposited data

Results flagged for a closer look

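Of 102 groups of 4 or 5 libraries checked for members, 8 held a library whose gap to the nearest other library was large for the range of its group, by Dixon's criterion at the 95% level. Chance flags about 1 in 20 groups. OAS3 in miR-34a-WT replicate 1 was at 0.852 CPM, while the others of that group were at 1.42 to 1.62. IFIT1 in miR-34a-WT replicate 2 was at 7.63 CPM against 5.78 to 6.25, and HERC5 in the same library was at 28.0 CPM against 23.8 to 24.3. RIGI in miR-34a-RS replicate 5 was at 0.642 CPM against 0.131 to 0.212. SAMD9 in miR-34a-WT replicate 4 was at 4.85 CPM against 5.40 to 5.58. IRF1 was at 3.59 CPM in control replicate 1 against 4.72 to 5.08, and IRF7 at 1.85 CPM in the same library against 2.11 to 2.19. IRF7 in miR-34a-WT replicate 1 was at 1.74 CPM against 2.40 to 2.64.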

How the results depend on the processing

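No member changed direction past the threshold under any alternative. Of the 9 members called for miR-34a-WT against control, 6 (EIF2AK2, HERC5, HERC6, IFI35, IFITM2 and SAMD9) were called in every alternative, and of the 11 for miR-34a-RS, 5 (MAVS, HERC5, HERC6, IFI35 and IFITM2). Leaving out each library in turn gave 7 to 11, 7 to 11 and 0 to 1 members called in the 3 comparisons, and 6742 to 7375, 5648 to 6361 and 142 to 730 of all genes. The lowest count for miR-34a-RS against control, 7 members, came without control replicate 4. Between the microRNA duplexes the member count was 0 without miR-34a-RS replicate 2, miR-34a-RS replicate 3 or miR-34a-WT replicate 5. DESeq2 called 510 genes in all there, against 286.

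With the replicate block the fit called 17 members for miR-34a-WT against control (9 higher, 8 lower), 13 for miR-34a-RS (6 higher, 7 lower) and 2 between the microRNA duplexes, with 8817, 7715 and 1254 of all genes. Against control the numbers pair the libraries less well: same-numbered libraries correlated at -0.20 to 0.599 for miR-34a-WT, where 3 of 5 were best with their own number, and at -0.06 to 0.521 for miR-34a-RS, where 2 of 4 were, so these block counts are a description only. For miR-34a-WT against control the block added as lower OAS3 (adjusted p = 0.0156), IFIH1 (0.0408), IRF3 (0.0175) and as higher MAVS (0.0276), TBK1 (0.0163), IFITM3 (0.0314), ADAR (0.0285) and ZC3HAV1 (0.0179), and for miR-34a-RS it added IRF7, higher (0.0227), and IFI27, lower (0.0384), all by edgeR. Of these, no other alternative called IRF3 and ZC3HAV1 for miR-34a-WT or IFI27 for miR-34a-RS. The cause of these changes was not tested. RLE and upper-quartile factors moved the median of all genes by at most 0.02 on the log2 scale. Depth limits the members under 1 CPM: OAS1, OAS2, OASL, IFIT2, TLR3, MX1, IFI44, BST2 and PARP14 had too few counts for a test.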
